A study of Mus musculus with 24 samples.

Results

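Of the mouse zinc finger genes named Zfp with a number, 158 were expressed in cultured neonatal microglia at a mean of at least 5 CPM (a gene's count scaled to a fixed library total). They were selected on this level from 367 such protein-coding genes, in a table of 55434 genes. Zfp36, whose product is an mRNA-binding protein and not a DNA-binding finger protein of this kind, was left out. Of the 367, 354 had at least 1 read. The members were thus chosen by the mean CPM over the 18 neonatal libraries, so the neonatal levels below are a description. Just above the threshold stood Zfp28 with 5.08, Zfp580 with 5.15 and Zfp40 with 5.17 CPM, and just below it Zfp827 with 4.88, Zfp579 with 4.87 and Zfp523 with 4.86 CPM.

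The study profiled RNA of mouse brain cells selected with magnetic beads for CD11b, a surface integrin of microglia and other myeloid cells, in 8 groups of 3 libraries. For 5 groups, neonatal MRL/lpr cells spent 48 h in culture (medium with 10% serum) before 6 h with 1 cytokine or with all 4 in a mixture. These were the interferons IFNg and IFNa (gamma and alpha), the interleukin IL-6, and TNFa, the tumour necrosis factor. Cultured MRL/lpr cells without cytokine were compared with each. The other groups were untreated microglia of 16-week-old MRL/lpr mice and of 16-week-old MRL/MpJ mice, the parent strain. All cultured cells therefore carry the lpr mutation of Fas, which gives MRL/lpr mice their lupus-like disease. The labels give no cytokine dose, no sex, and no statement that replicates were separate animals or cultures, so p-values measure the spread between these libraries.

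Most Zfp genes encode C2H2 zinc finger proteins, in which a zinc ion holds each finger in shape and an array of fingers reads a DNA sequence. Many carry a KRAB domain, which recruits TRIM28 (KAP1) and through it the histone methyltransferase SETDB1 and HP1 proteins, and so silences retroelements and keeps imprinted genes methylated. Others lack KRAB and act as activators, as chromatin cofactors, as RNA-binding or ribosome-associated proteins, or as ubiquitin and SUMO ligases.

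Libraries held 10.08 to 19.32 M (mega) counts, and every member had at least 1 read in every library. Known cytokine targets were high under their labels, in TMM-scaled CPM (CPM after edgeR's scaling for composition). Socs3, a target of IL-6, lay at 167 to 205 with IL-6 against 0.84 to 7.48 in unstimulated cells, and Isg15 at 1042 to 1138 with IFNa against 66.0 to 186. Fas lay at 0.34 to 1.57 in adult MRL/lpr and 0.22 to 0.75 in adult MRL/MpJ libraries and did not tell the strains apart. The defining microglial markers Tmem119 and P2ry12 averaged 3762 and 5525 plain CPM in adult MRL/lpr and 6897 and 6948 in MRL/MpJ cells. In the neonatal groups they averaged only 0.72 to 22.7 and 6.47 to 51.4, while Csf1r averaged 1571 to 2929. The summed astrocyte markers lay at 308 to 354 plain CPM in each neonatal replicate 1 and at 26.9 to 67.6 in replicates 2 and 3. Neonatal counts are therefore also given from replicates 2 and 3 alone, a choice made after seeing the data.

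Members differed widely in level. Per kb of gene length over all neonatal groups pooled, Zfp710 was highest with 26.8 ± 5.13 CPM per kb (SD over 18 libraries of all 6 groups). It was followed by Zfp703 with 21.6 ± 10.4, Zfp513 with 20.7 ± 7.77, Zfp281 with 20.4 ± 9.33 and Zfp706 with 19.3 ± 4.16 CPM per kb, and these neighbours in the order do not differ beyond their spread. The order differed in unstimulated libraries alone, where Zfp703 with 29.30 ± 4.40 CPM per kb stood above Zfp710 with 26.01 ± 3.93 (SD, n = 3 each). There Zfp706 had 22.52 ± 1.33, Zfp207 16.23 ± 2.92, Zfp513 15.97 ± 2.07 and Zfp281, the ninth in that order, 12.01 ± 2.50 CPM per kb. Over the pooled groups the lowest were Zfp738 with 0.479 ± 0.167, Zfp157 with 0.624 ± 0.361 and Zfp945 with 0.638 ± 0.223 CPM per kb. The median member had 2.75 CPM per kb and 15.8 plain CPM. The members took 0.277% to 0.303% of all reads in the mixture libraries, 0.370% to 0.401% in unstimulated, 0.701% to 0.825% in adult MRL/lpr and 0.508% to 0.542% in adult MRL/MpJ libraries. Adult cells were untreated and neonatal cells cultured, so age and culture cannot be told apart and no test was made between them.

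In the coding sequences of the GENCODE M21 annotation, 61 members held a KRAB A box by pattern search and 97 did not. A pattern misses degenerate boxes, so the other group can hold KRAB proteins. The median KRAB member had 12 C2H2 fingers by pattern and the median other member 8, with up to 37 in 1 member and none in 3. KRAB members were less abundant in the neonatal libraries, with a median of 1.85 CPM per kb against 3.98 for the others. By mm10 position, 37 members lay on chromosome 7, 19 on chromosome 17 and 14 on chromosome 8, and 10 runs of at least 4 members with neighbours within 1 Mb were found. The widest run, chromosome 17 from 21008903 to 23564238, held 11 members (Zfp160, Zfp53, Zfp52, Zfp942, Zfp943, Zfp994, Zfp758, Zfp946, Zfp945, Zfp40 and Zfp213), 8 of them KRAB genes.

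Whether lupus-prone adult microglia differ from the parent strain was tested first. In MRL/lpr cells 59 members rose and 19 fell relative to MRL/MpJ cells by edgeR's quasi-likelihood test at a Benjamini-Hochberg adjusted p under 0.05. Over all 13799 genes tested 24.1% were called higher and 21.6% lower. The members' median log2 fold change was 0.19 and that of all genes 0.01. In 23 of the risen members the change was at least 2-fold, and in 0 of the fallen. All genes tested had the same kind of asymmetry, with 5th and 95th percentiles of the log2 fold change of -0.99 and 2.36. The split depends on the scaling: with total counts only, all genes shifted by 0.261 on the log2 scale and 86 members were higher and 4 lower. The members' median stood 0.17 above that of all genes with TMM and 0.18 above it with total counts. Without MRL/lpr replicate 1, 12 members were lower, against 19 with every library. The plot of called genes by comparison sets these shares beside those of all genes.

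**Figure D1:**
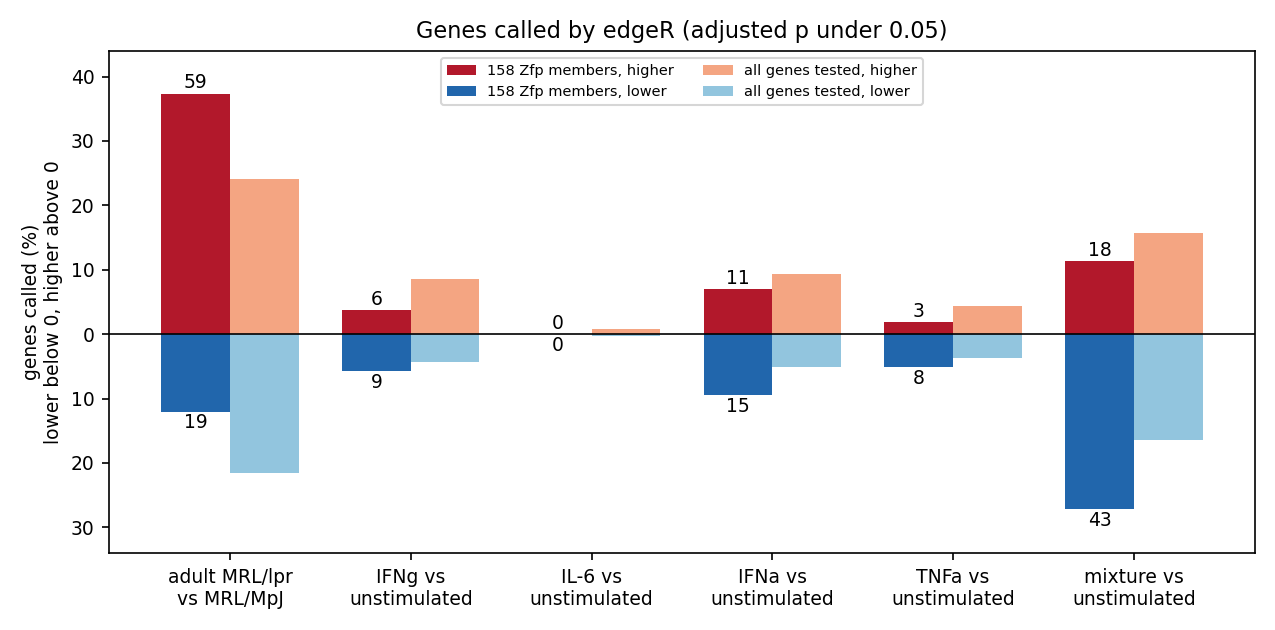
Percent of genes called by edgeR (adjusted p under 0.05) as higher (above 0) or lower (below 0) in each comparison, for the 158 Zfp members (dark bars, with their number) and for all genes tested (pale bars). In adult MRL/lpr cells 59 members were higher and 19 lower, and with the cytokine mixture 18 were higher and 43 lower.

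Zfp949, a KRAB gene on mm10 chromosome 9 (88548020 to 88571061), had the largest difference of any member between the adult strains. It had 55.2, 43.2 and 66.0 TMM-scaled CPM in MRL/lpr libraries, against 4.58, 4.12 and 4.37 in MRL/MpJ libraries. Every MRL/lpr library was far above every MRL/MpJ library, and the log2 fold change was 3.65 ± 0.187 (SE; edgeR adjusted p = 1.12e-07). Zfp445, the KRAB protein that with ZFP57 maintains methylation at imprinted genes, had 149, 115 and 143 CPM in MRL/lpr and 48.3, 41.7 and 50.9 CPM in MRL/MpJ libraries, again with no overlap. Its log2 fold change was 1.53 ± 0.127 (edgeR adjusted p = 3.89e-06).

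Several risen members stood on a list of chromatin cofactors. Of its 15 measured members, 9 rose and 1 fell, with a median log2 fold change of 0.54. Over all genes 24.1% were called higher and 21.6% lower, and of all 158 members 59 rose and 19 fell. Zfp335, part of a histone H3K4 methyltransferase complex and needed for T cell maturation and brain growth, had 48.3, 36.9 and 48.3 CPM in MRL/lpr and 10.6, 13.6 and 13.2 CPM in MRL/MpJ libraries (log2 fold change 1.84 ± 0.162, edgeR adjusted p = 5.7e-06). Its exons overlap 1107 bases of Pcif1 on the opposite strand. Pcif1 had a mean of 96.5 CPM in MRL/lpr and 108 CPM in MRL/MpJ cells and was not called. Another 234 bases overlap Zfp335os on the opposite strand, which had a mean of 1.26 CPM in MRL/lpr and 0.27 CPM in MRL/MpJ cells (log2 fold change 2.17 ± 0.773, edgeR adjusted p = 0.037). Zfp292, a neurodevelopmental disorder gene in humans, Zfp219, a partner of SOX9 in cartilage, and Zfp608, which represses the Rag genes in mouse thymocytes, rose by log2 fold changes of 1.21 ± 0.142, 1.17 ± 0.136 and 1.16 ± 0.154 (edgeR adjusted p from 4.17e-05 to 0.000108). Zfp219 exons overlap 175 bases of Arhgef40 on the opposite strand, which rose too, with a mean of 364 CPM in MRL/lpr and 198 CPM in MRL/MpJ cells (0.88 ± 0.121, edgeR adjusted p = 0.000129). Of the partners Zfp532, Zfp592 and Zfp687, which join the chromatin reader ZMYND8 in the Z3 complex, Zfp532 and Zfp592 rose and Zfp687 fell, with log2 fold changes of 0.84, 0.43 and -0.38. With total counts Zfp687 was not called.

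Of 10 measured members listed as acting on RNA, 6 rose and 1 fell, with a median log2 fold change of 0.94. Over all genes 24.1% were called higher and 21.6% lower. Zfp326, which belongs to the DBIRD complex that couples transcript elongation to splicing, had 35.2, 30.3 and 38.2 CPM in MRL/lpr and 8.28, 7.74 and 10.0 CPM in MRL/MpJ libraries. The groups did not overlap, and the log2 fold change was 1.99 ± 0.164 (edgeR adjusted p = 3.51e-06). Zfp598, the ubiquitin ligase that marks collided ribosomes, rose by 1.39 ± 0.15 (edgeR adjusted p = 2.45e-05). Zfp638, which takes the HUSH complex to unintegrated retroviral DNA, rose by 1.25 ± 0.199 (edgeR adjusted p = 0.000398). Zfp106, an RNA-binding protein needed by motor neurons, rose by 1.08 ± 0.129 (edgeR adjusted p = 4.77e-05). Its exons overlap 2719 bases of the antisense gene Gm26899, which had a mean of 0.0 CPM in both adult groups. Zfp622, a maturation factor of the large ribosomal subunit, fell by 0.53 on the log2 scale and was not called with total counts. Zfp91, a ubiquitin ligase of the NIK kinase in non-canonical NF-kappaB signalling, rose by 0.56 ± 0.134 (edgeR adjusted p = 0.0052). Of 3 listed ubiquitin and SUMO ligases 2 rose (Zfp91 and Zfp598). Of 4 listed imprint and retroelement regulators 2 rose (Zfp445 and Zfp638), beside the 24.1% of all genes.

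Other members with large differences have no role that can be stated with certainty. Zfp276 had 90.2, 80.9 and 87.2 CPM in MRL/lpr and 27.0, 20.4 and 29.8 CPM in MRL/MpJ libraries, a log2 fold change of 1.74 ± 0.143 (edgeR adjusted p = 3.37e-06). Its exons overlap Fanca (920 bases) and Vps9d1 (154 bases) on the opposite strand, and both were higher in MRL/lpr cells too, with log2 fold changes of 1.87 ± 0.602 and 1.71 ± 0.136 (edgeR adjusted p = 0.024 and 2.57e-06). Zfp653, Zfp511 and Zfp28 rose by 1.68 ± 0.201, 1.59 ± 0.172 and 1.53 ± 0.201 on the log2 scale (edgeR adjusted p from 2.54e-05 to 9.45e-05).

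The fallen members changed less than the risen ones, as over all genes, where the 5th and 95th percentiles were -0.99 and 2.36. Zfp703, a transcriptional corepressor amplified in human breast cancers, had 93.7, 96.4 and 102 CPM in MRL/lpr and 184, 140 and 164 CPM in MRL/MpJ libraries (log2 fold change -0.74 ± 0.115, edgeR adjusted p = 0.000302). Zfp574, Zfp358 and Zfp706 fell by 0.76, 0.73 and 0.58 on the log2 scale and were also called with total counts. Zfp213, Zfp60, Zfp319 and Zfp30, which affects neutrophil chemokine output in mouse lung, had log2 fold changes of -0.64, -0.63, -0.60 and -0.63 and were called with TMM. With total counts their edgeR adjusted p lay at 0.0612, 0.0693, 0.0555 and 0.0981. Zfp213 exons overlap 1250 bases of the antisense gene Gm26695 and 270 bases of AC154766.4 on the opposite strand. Both had a mean of 0.0 CPM in both adult groups. Zfp24, needed for myelination, fell by 0.41 on the log2 scale and gave an edgeR adjusted p of 0.283 with total counts. In its list of 5 receptor, metabolic and lineage regulators Zfp369 also rose, by 0.52 ± 0.169 (edgeR adjusted p = 0.0247, and 0.095 without MRL/lpr replicate 1).

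**Figure D2:**
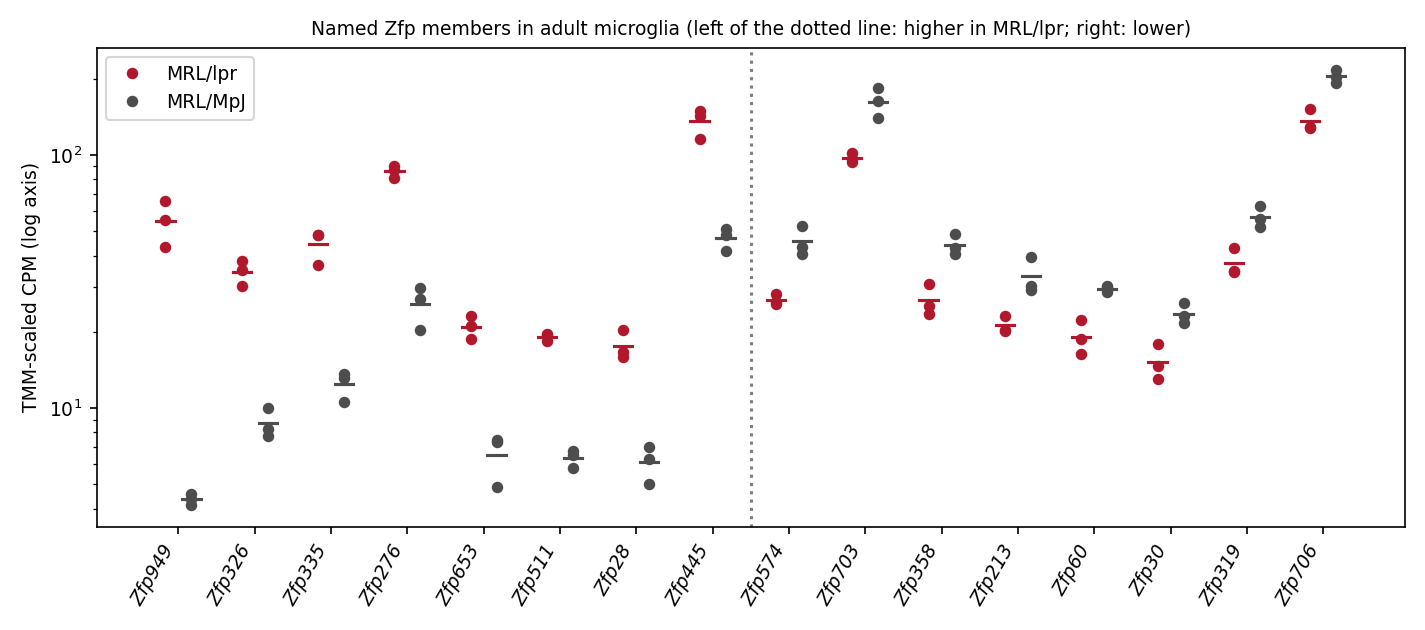
TMM-scaled CPM (log axis) in each of the 3 MRL/lpr (red, left) and 3 MRL/MpJ (grey, right) libraries for 8 members that rose and 8 that fell; short lines are means. Zfp949 lay at 43.2 to 66.0 in MRL/lpr libraries and at 4.12 to 4.58 in MRL/MpJ libraries, and the fallen members were separated by smaller steps.

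Several other measures moved with the adult groups, and their part in the differences was not tested. In plain CPM the nuclear RNA Malat1 lay at 933 to 1326 in MRL/lpr libraries, against 65.8 to 164 in MRL/MpJ libraries, and Neat1 at 57.4 to 91.1 in MRL/lpr libraries, against 3.48 to 5.86 in MRL/MpJ libraries. The reads of ribosomal protein genes made up 1.30% to 1.73% (MRL/lpr) and 2.18% to 2.55% (MRL/MpJ) of the libraries. The immediate early genes together had 2941 to 3236 CPM in MRL/lpr libraries, against 875 to 956 CPM in MRL/MpJ libraries. The 8 T and NK cell markers summed to 44.7 to 51.4 CPM in MRL/lpr libraries, against 8.99 to 26.03 in MRL/MpJ libraries. Gzma made up most of this, averaging 30.2 CPM in MRL/lpr and 7.06 CPM in MRL/MpJ cells. Cd4 alone was lower in MRL/lpr cells (3.33 against 4.84 CPM). The 5 border macrophage markers summed to 73.5 to 157.7 CPM in MRL/lpr libraries, against 215 to 260 in MRL/MpJ libraries. The astrocyte markers summed to 153.6 to 222 CPM in MRL/lpr libraries, against 129 to 139.2 in MRL/MpJ libraries, and the neuronal markers to 5.87 to 14.65 CPM in MRL/lpr libraries, against 2.27 to 5.04 in MRL/MpJ libraries. The fibroblast and mural cell markers summed to 55.1 to 62.0 CPM in MRL/lpr libraries, against 79.95 to 117.1 in MRL/MpJ libraries. For the 8 microglial markers these sums were 39670 to 43660 in MRL/lpr libraries, against 60970 to 61960 in MRL/MpJ libraries. None of these ranges overlapped between the strains. The ranges of the endothelial markers did (195 to 224 CPM in MRL/lpr and 151 to 228 CPM in MRL/MpJ libraries). So did those of the neutrophil markers (273 to 325 and 203 to 538) and oligodendrocyte markers (218 to 334 and 286 to 383). The B and plasma cell markers overlapped too (33.5 to 96.4 and 27.0 to 38.3). In bulk libraries, fewer cells of a type and less RNA per cell cannot be told apart.

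For the cytokine comparisons, the start regions of Zfp263, Zfp281 and Zfp800, which rose, and of Zfp146, which fell, are shown first, since these cytokines act through transcription factors that can bind upstream of genes. The 150 bases upstream of the start are given 5′ to 3′ on the gene's strand, from RefSeq on GRCm38.p6 (mm10), for Zfp263 (chr16:3743949-3744098, plus strand), Zfp281 (chr1:136624751-136624900, plus strand), Zfp800 at its 2 annotated starts (chr6:28398006-28398155 and chr6:28261925-28262074, minus strand) and Zfp146 (chr7:30169742-30169891, minus strand). Capitals mark a match to the GAS motif TTCNNNGAA.
Zfp263: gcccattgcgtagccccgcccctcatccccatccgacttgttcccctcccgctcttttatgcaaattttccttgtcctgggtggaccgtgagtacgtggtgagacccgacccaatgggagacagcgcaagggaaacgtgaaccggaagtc
Zfp281: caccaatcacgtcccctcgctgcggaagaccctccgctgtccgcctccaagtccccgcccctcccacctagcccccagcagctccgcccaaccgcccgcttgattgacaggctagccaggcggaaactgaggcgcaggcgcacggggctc
Zfp800, upstream start: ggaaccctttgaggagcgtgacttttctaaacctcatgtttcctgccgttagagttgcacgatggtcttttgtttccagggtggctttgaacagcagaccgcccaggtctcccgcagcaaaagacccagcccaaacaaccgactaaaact
Zfp800, downstream start: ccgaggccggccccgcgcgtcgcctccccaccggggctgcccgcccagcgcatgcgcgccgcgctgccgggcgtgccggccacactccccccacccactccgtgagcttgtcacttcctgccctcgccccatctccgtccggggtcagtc
Zfp146: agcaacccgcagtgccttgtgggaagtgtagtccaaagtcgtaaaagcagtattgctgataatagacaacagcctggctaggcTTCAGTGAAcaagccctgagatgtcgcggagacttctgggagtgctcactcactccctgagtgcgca

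The RefSeq promoter table matched 127 of the 158 members, with a window of 250 bases before and 50 after each annotated start. Both strands were searched. A gene counted once if any of its windows held the pattern, so genes with more starts had more sequence searched. An interferon-response (ISRE) pattern, GAAA and GAAA with any 2 bases between, was found for 2 members (1.57%) and for 3.99% of 27025 genes. The GAS letters TTCNNNGAA were found for 22 members (17.32%) and for 9.55% of all genes. A kappaB pattern, GGGA, any 2 bases, T, any base and CC, was found for 8 (6.30%) and 4.56%. None of the 3 patterns was in the windows of Zfp263, Zfp281 or Zfp800, which says nothing of binding elsewhere or of other letters.

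All neonatal comparisons with a cytokine share the same 3 unstimulated libraries. Because the threshold was a mean over all groups, 38 members had at least 1 neonatal group below 5 CPM. For 10 of them the mean over the remaining 5 groups was below 5 CPM once 1 group was left out, so they are members only through that group. They were Zfp961 and Zfp952 through IFNg, Zfp719 and Zfp758 through TNFa, Zfp30 and Zfp580 through unstimulated cells, Zfp809 through IL-6, and Zfp40, Zfp157 and Zfp28 through either IL-6 or unstimulated cells. A difference of such a member from a group that is lower was built into the selection, so it is described below without a test, and counts are also given without these members. All 158 passed the filter on low counts. Same-numbered neonatal libraries deviated together, so the counts with the replicate number as a block are given beside those without it. The shares of all genes are from the main fit. Counts under other settings thus have no matching share and are no result about the members alone. Total counts shifted all genes by -0.187 with IFNg and -0.176 with IFNa on the log2 scale. For the mixture over IFNg and over TNFa the shifts were -0.231 and -0.345.

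IFNg, the type II interferon, raised 6 members and lowered 9, against 8.57% of all genes called higher and 4.32% lower. Leaving out those that are members only through IFNg or only through unstimulated cells, 4 were higher and 7 lower. The replicate block gave 14 higher and 16 lower, replicates 2 and 3 only gave 3 and 4, and total counts gave 5 and 14. The members' median log2 fold change was -0.01 and that of all genes -0.02. Without the IFNg libraries of replicates 2 or 3, or the unstimulated library of replicate 2, 5 members were lower, and without IFNg replicate 1 or unstimulated replicate 2, 4 were higher.

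Zfp281, which in embryonic stem cells restrains Nanog and helps cells leave pluripotency, had 131, 120 and 196 CPM with IFNg and 42.7, 48.1 and 71.9 CPM unstimulated (1.46 ± 0.276, edgeR adjusted p = 0.00186). In both groups replicate 3 was the highest library. Zfp800, whose human counterpart represses enteroendocrine genes in gut organoids, rose by 1.15 ± 0.269 (edgeR adjusted p = 0.00868, and 0.0991 with replicates 2 and 3 only). Zfp263, whose human counterpart represses genes of heparan sulfate synthesis, rose by 0.80 ± 0.171 (edgeR adjusted p = 0.00489). Zfp961, a KRAB gene that is a member only through IFNg, had 12.82, 11.33 and 14.34 CPM with IFNg and 3.61, 5.07 and 2.47 CPM in unstimulated libraries.

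Among the 9 fallen members, Zfp704 had 17.9, 16.5 and 20.2 CPM with IFNg and 50.3, 54.8 and 52.6 CPM unstimulated. The groups were far apart, with a log2 fold change of -1.53 ± 0.264 (edgeR adjusted p = 0.000855). Zfp362 and Zfp740 fell by 0.80 and 0.69 on the log2 scale (edgeR adjusted p = 0.00918 and 0.00134). Zfp608 fell by 1.01 ± 0.249 (edgeR adjusted p = 0.0121), and without IFNg replicate 2 its adjusted p was 0.0738.

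IFNa, a type I interferon, raised 11 members and lowered 15, against 9.41% of all genes called higher and 5.07% lower. Without the members that are so only through unstimulated cells, 11 were higher and 12 lower. The counts over all 158 were 16 and 27 with the replicate block, with replicates 2 and 3 only 2 and 4, and with total counts 5 and 26. Without IFNa replicate 1, IFNa replicate 2 or any 1 unstimulated library 3 to 7 members were higher, and without IFNa replicate 1 or 2, 9 or 8 were lower. The members' median log2 fold change was -0.12 and that of all genes -0.04.

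Zfp800 had 19.48, 38.44 and 20.02 CPM with IFNa and 8.51, 11.40 and 11.24 CPM unstimulated, the IFNa library of replicate 2 being the highest (log2 fold change 1.32 ± 0.269, edgeR adjusted p = 0.00276). Zfp821 had 27.8, 35.3 and 35.3 CPM with IFNa and 16.1, 16.6 and 17.2 CPM unstimulated (0.98 ± 0.163, edgeR adjusted p = 0.00058). Both sets of libraries were apart. Zfp319 rose by 0.98 ± 0.228 (edgeR adjusted p = 0.00721, and 0.0713 with replicates 2 and 3 only). Zfp281 rose by 1.06 ± 0.273 (edgeR adjusted p = 0.0142, and 0.0738 without unstimulated replicate 1).

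Zfp704 was again the most lowered, with 14.98, 11.97 and 16.72 CPM with IFNa against the unstimulated values above (-1.85 ± 0.267, edgeR adjusted p = 0.000169). Zfp146, a protein of 292 residues with 10 fingers and little else, had 16.2, 13.6 and 17.5 CPM with IFNa and 26.2, 26.2 and 24.6 CPM unstimulated. The groups did not overlap (-0.71 ± 0.127, edgeR adjusted p = 0.00109, and 0.0526 with replicates 2 and 3 only). Zfp608 and Zfp770 fell by 1.31 and 1.32 on the log2 scale, and the KRAB gene Zfp52 by 1.195 (edgeR adjusted p from 0.0017 to 0.00723). With replicates 2 and 3 only, the edgeR adjusted p of Zfp52 lay at 0.132. Zfp40 and Zfp157, for which the selection used the unstimulated level, averaged 2.80 ± 0.462 and 3.39 ± 0.581 CPM with IFNa and 7.28 ± 2.22 and 7.71 ± 2.21 CPM unstimulated (SD, n = 3 each).

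Of the role lists with IFNa, 2 of 15 chromatin cofactors rose (Zfp281 and Zfp687) and 1 fell (Zfp608). Over all genes 9.41% were called higher and 5.07% lower. Zfp207, a spindle assembly factor that binds BUB3, rose by 0.52 ± 0.133 and Zfp326 fell by 0.97 ± 0.244 (edgeR adjusted p = 0.0138 and 0.012, and 0.155 and 0.154 with replicates 2 and 3 only). Zfp687 and Zfp91 rose by 0.60 and 0.47 (edgeR adjusted p = 0.0244 and 0.0433), and without unstimulated replicate 1 these p were 0.0972 and 0.137.

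TNFa, which activates NF-kappaB, raised 3 members and lowered 8, against 4.38% of all genes called higher and 3.72% lower. Of the 8, Zfp30 is a member only through unstimulated cells. The block gave 9 higher and 12 lower, with replicates 2 and 3 only 2 and 3, and with DESeq2 6 and 9. Without unstimulated replicate 2, 1 member was higher and 4 were lower. Without TNFa replicate 3 also 4 were lower, and without unstimulated replicate 3 or TNFa replicate 2, 5 were. The median log2 fold change was -0.05 for the members and -0.02 for all genes.

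The largest rise of a member with a single cytokine was that of Zfp263 with TNFa. It had 78.6, 97.2 and 120 CPM with TNFa and 22.3, 23.4 and 23.2 CPM in unstimulated libraries. Every TNFa library was more than 3 times the highest unstimulated one, and the log2 fold change was 2.102 ± 0.176 (edgeR adjusted p = 9.96e-07). Zfp275 rose by 0.81 ± 0.181 (edgeR adjusted p = 0.00855, and 0.062 without unstimulated replicate 2). Zfp598, the ribosome collision ligase, rose by 0.51 ± 0.152 (edgeR adjusted p = 0.0499), and its p was 0.236 without TNFa replicate 2 and 0.178 with total counts.

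Zfp395 had 9.266, 11.97 and 8.395 CPM with TNFa and 46.0, 48.8 and 59.0 CPM unstimulated, a log2 fold change of -2.38 ± 0.439 (edgeR adjusted p = 0.00226). Its human counterpart is a hypoxia-induced factor under the control of IkappaB kinases, and Zfp704 is a relative with the same kind of single finger. Zfp704 had 28.32, 23.17 and 15.29 CPM with TNFa (-1.24 ± 0.261, edgeR adjusted p = 0.0055), below every unstimulated library. Zfp821 had 9.266, 9.270 and 8.502 CPM with TNFa, also below every unstimulated library (-0.88 ± 0.165, edgeR adjusted p = 0.00226, and 0.056 with replicates 2 and 3 only).

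With IL-6 0 members were called by edgeR, by DESeq2 and by limma-voom, against 0.745% of all genes called higher and 0.232% lower by edgeR. An unadjusted edgeR p under 0.05 was found for 8 of the 158 members and for 1397 of all 14626 genes. The block gave 3 higher and 4 lower, counting Zfp30 among the lower, for which the direction was built into the selection. Zfp143, Zfp281 and Zfp608 were higher, with log2 fold changes of 0.54, 0.55 and 0.71. Zfp219, Zfp622 and Zfp771 were lower, with -0.62, -0.51 and -0.88 (edgeR adjusted p with the block under 0.05 for each). Zfp608 had 21.9, 19.3 and 20.5 CPM with IL-6 and 13.02, 10.85 and 13.94 CPM unstimulated.

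The mixture of cytokines lowered 43 members and raised 18, against 15.7% of all genes called higher and 16.4% lower. Without Zfp30, Zfp40 and Zfp157, members through unstimulated cells, 40 were lower. The members' median log2 fold change was -0.28 and that of all genes -0.05. With total counts, which shifted all genes by -0.419, 88 members were lower and 7 higher. The members' median lay 0.228 below that of all genes with TMM and 0.226 below it with total counts. Under the replicate block 25 were higher and 57 lower, with replicates 2 and 3 only 14 and 24, and with only the mixture and unstimulated libraries fitted 16 and 28. With 1 library left out 15 to 19 were higher and 29 to 38 lower, the fewest lower without mixture replicate 2.

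Zfp800 had 60.28, 42.77 and 59.09 CPM with the mixture and 8.51, 11.40 and 11.24 CPM unstimulated, the largest rise of a member with a cytokine or the mixture (log2 fold change 2.38 ± 0.276, edgeR adjusted p = 6.52e-06). Zfp281 had 155, 131 and 274 CPM with the mixture and 42.7, 48.1 and 71.9 CPM unstimulated, with replicate 3 highest in both (1.78 ± 0.278, edgeR adjusted p = 0.000113). Zfp513, whose human counterpart is mutated in a form of retinitis pigmentosa, had 110, 98.4 and 83.7 CPM with the mixture and 33.5, 40.5 and 33.0 CPM unstimulated (1.45 ± 0.222, edgeR adjusted p = 9.1e-05). No library of these members crossed between the groups.

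Zfp319, Zfp263 and Zfp821 rose by 1.26 ± 0.229, 1.24 ± 0.172 and 0.97 ± 0.163 (edgeR adjusted p from 3.76e-05 to 0.000446). Zfp207 had 175, 185 and 184 CPM with the mixture and 96.8, 111 and 83.7 CPM unstimulated, and rose by 0.90 ± 0.133 (edgeR adjusted p = 6.56e-05). Zfp143, which binds promoters of small nuclear RNA and housekeeping genes, had 20.4, 30.0 and 37.3 CPM with the mixture and 15.67, 16.94 and 17.99 CPM unstimulated. Its log2 fold change was 0.79 ± 0.186 (edgeR adjusted p = 0.00349, and 0.0575 with total counts). Zfp91 rose by 0.58 ± 0.15 (edgeR adjusted p = 0.00643, and 0.41 with total counts).

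Zfp395 fell further than any other member, with 2.23, 1.46 and 6.32 CPM with the mixture against 46.0, 48.8 and 59.0 CPM unstimulated (-3.93 ± 0.481, edgeR adjusted p = 1.38e-05). Zfp704 had 14.9, 6.92 and 7.85 CPM with the mixture and 50.3, 54.8 and 52.6 CPM unstimulated (-2.41 ± 0.274, edgeR adjusted p = 5.31e-06). In both, every mixture library lay below every unstimulated one. Zfp704 exons overlap 2525 bases of the antisense gene C030034L19Rik, which had a mean of 0.07 CPM with the mixture and 0.39 CPM unstimulated. Zfp608 had 4.23, 3.79 and 2.78 CPM with the mixture and 13.02, 10.85 and 13.94 CPM unstimulated (-1.81 ± 0.257, edgeR adjusted p = 4.47e-05).

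The KRAB gene Zfp60 fell by 1.61 on the log2 scale, and Zfp41 and Zfp532 by 1.58 each (edgeR adjusted p from 0.000462 to 0.0023). Zfp30 had 3.04, 3.50 and 2.22 CPM with the mixture and 8.45, 14.2 and 8.99 CPM unstimulated. Zfp157 had 2.38, 1.82 and 1.87 CPM with the mixture and 9.16, 8.80 and 5.17 CPM unstimulated. Both are KRAB genes that the unstimulated level made members, so these values are a description. Zfp532 exons overlap 1943 bases of the unnamed gene AC132307.5 and 634 bases of AC132307.3 on the opposite strand. Both had a mean of 0.0 CPM with the mixture and unstimulated. Zfp652, named after its values were seen, shares 2913 exon bases with Abi3 on the opposite strand, so its fall by 1.25 ± 0.204 (edgeR adjusted p = 0.000168) stands beside a fall of Abi3 by 2.21 ± 0.366 (edgeR adjusted p = 0.000214).

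**Figure D3:**
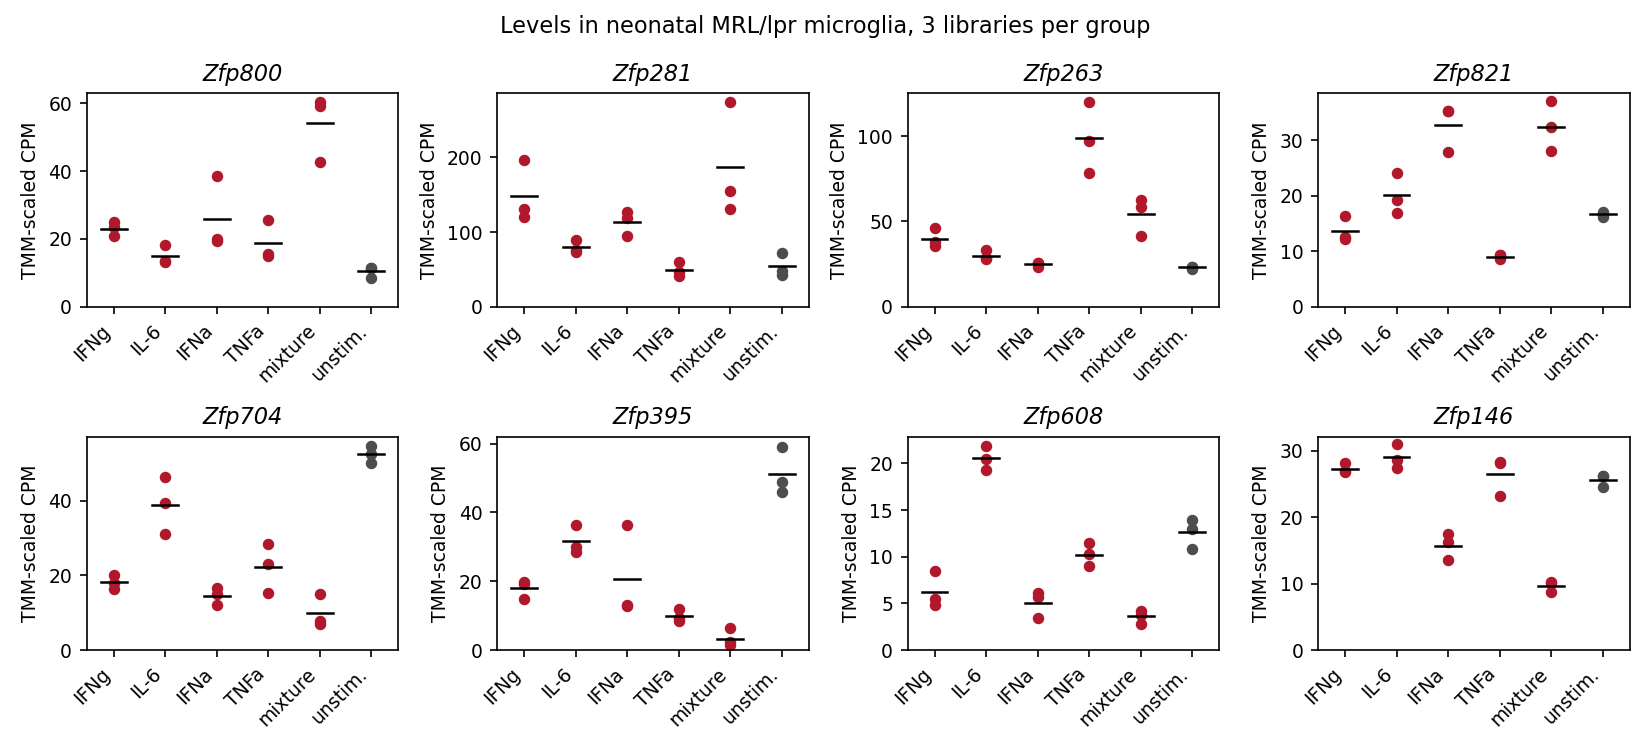
TMM-scaled CPM in each of 3 libraries per group of neonatal MRL/lpr microglia (red, cytokine; grey, unstimulated; black line, mean). Zfp263 was highest with TNFa (78.6 to 120), Zfp800 with the mixture (42.8 to 60.3), and Zfp704 and Zfp395 were highest in unstimulated libraries.

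By role, the mixture raised 4 of 15 chromatin cofactors (Zfp281, Zfp143, Zfp335 and Zfp687) and lowered 3 (Zfp608, Zfp532 and Zfp219). Over all genes 15.7% were called higher and 16.4% lower. With total counts the edgeR adjusted p of Zfp335 and Zfp687 was 0.381 and 0.312, and without mixture replicate 2 that of Zfp219 was 0.116. Arhgef40, whose exons overlap those of Zfp219, fell with the mixture too (-0.81 ± 0.249, edgeR adjusted p = 0.0193). Both called members of the 4 measured imprint and retroelement regulators fell. Zfp445 had 24.4, 25.1 and 23.7 CPM with the mixture and 35.8, 31.2 and 32.6 CPM unstimulated (-0.44 ± 0.139, edgeR adjusted p = 0.0211, and 0.105 without mixture replicate 3). Zfp809, which silences murine leukemia virus by binding its primer site, had 2.598, 3.060 and 3.749 CPM with the mixture and 4.84, 5.43 and 6.86 CPM unstimulated (-0.86 ± 0.311, edgeR adjusted p = 0.0438, and 0.167 without mixture replicate 1). Neither was called with replicates 2 and 3 only (edgeR adjusted p = 0.231 and 0.116). Zfp746, which represses the PGC-1alpha gene, fell by 0.62 ± 0.143 (edgeR adjusted p = 0.00304, and 0.107 with replicates 2 and 3 only). Zfp326 fell by 1.14 ± 0.246 (edgeR adjusted p = 0.00187). The SUMO ligase Zfp451 fell by 0.40 ± 0.147 (edgeR adjusted p = 0.0452), and without mixture replicate 2 its p was 0.3.

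KRAB members and other members gave different counts with the mixture. Of the 61 KRAB members, 2 rose (Zfp949 and Zfp952) and 19 fell, with a median log2 fold change of -0.44. Of the 97 others, 16 rose and 24 fell, with a median of -0.10. Of all genes, 15.7% were called higher and 16.4% lower with the mixture. Without the members selected through unstimulated cells, 17 KRAB members and 23 others fell. With IFNa 0 KRAB members rose and 6 fell (median -0.21), and 11 others rose and 9 fell (median 0.01). Without those members 4 KRAB members and 8 others fell. Of all genes, 9.41% were called higher and 5.07% lower with IFNa. With IFNg 3 KRAB members were higher and 3 lower, and 3 and 6 of the others, beside 8.57% and 4.32% of all genes. With TNFa 0 KRAB members were higher and 2 lower, and 3 and 6 of the others, beside 4.38% and 3.72% of all genes. Of the KRAB members counted with IFNg, 1 higher and 1 lower did not depend on the selection in this way, and with TNFa 1 lower did not. In adult MRL/lpr cells 21 KRAB members rose and 8 fell (median 0.15), and 38 others rose and 11 fell (median 0.20). Of all genes, 24.1% were called higher and 21.6% lower in that comparison. KRAB members were less abundant, and the difference between the classes was not tested.

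**Figure D4:**
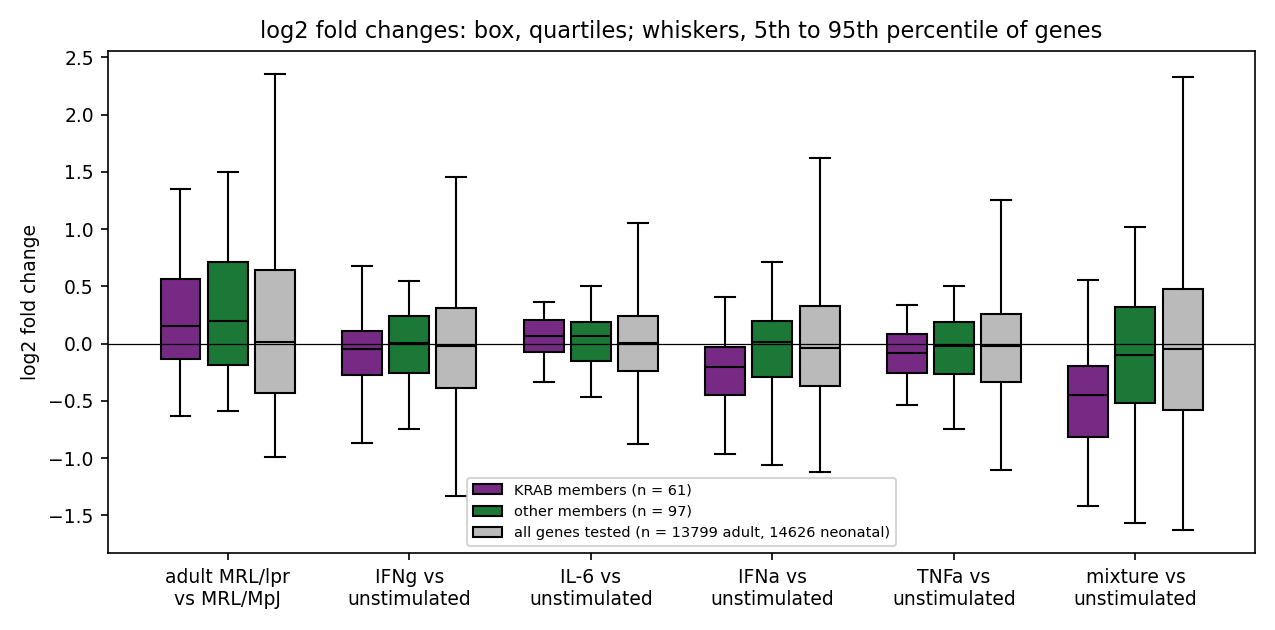
Log2 fold changes in each comparison for the 61 KRAB members (purple), the 97 other members (green) and all genes tested (grey); boxes give quartiles and whiskers the 5th to 95th percentile of genes. With the mixture the median was -0.44 for KRAB members, -0.10 for other members and -0.05 for all genes.

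The partners through which KRAB proteins silence DNA were counted from a list of 22 tested genes. With the mixture 3 rose and 6 fell, with a median log2 fold change of -0.31, beside the 15.7% higher and 16.4% lower of all genes. Trim28, which binds KRAB, averaged 112 ± 12.9 CPM with the mixture and 213 ± 17.26 CPM unstimulated (SD, n = 3 each; log2 fold change -0.92 ± 0.126, edgeR adjusted p = 3.01e-05). Setdb1, its methyltransferase partner, averaged 25.8 ± 3.96 CPM with the mixture and 54.8 ± 1.35 CPM unstimulated (-1.09 ± 0.138, edgeR adjusted p = 1.6e-05). Cbx3, Ehmt1, Dnmt1 and Dnmt3b fell by 1.21, 1.09, 0.91 and 1.38, and Daxx, Hdac1 and Morc3 rose by 3.31, 2.30 and 1.45.

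With IFNa 3 of the 22 rose and 4 fell, beside 9.41% higher and 5.07% lower of all genes. Daxx, Hdac1 and Morc3 rose by 2.597, 1.58 and 1.26, Cbx3 and Ehmt1 fell by 0.65 and 0.55, and Trim28 and Setdb1 fell by 0.52 ± 0.125 and 0.60 ± 0.136 (edgeR adjusted p = 0.00887 and 0.00595). With IFNg 3 rose and 1 fell, beside 8.57% higher and 4.32% lower of all genes. Daxx, Hdac1 and Suv39h1 rose by 1.28, 0.98 and 0.86. Trim28 fell by 0.42 ± 0.125 (edgeR adjusted p = 0.0357), and Setdb1 had a log2 fold change of -0.38 ± 0.136 (edgeR adjusted p = 0.0805). In adult MRL/lpr cells 10 of the 22 rose and 0 fell, beside 24.1% higher and 21.6% lower of all genes, among them Chd3 by 2.55, Dnmt3a by 1.59, Atrx by 1.52 and Setdb1 by 0.77, while Trim28 had a log2 fold change of -0.15 (edgeR adjusted p = 0.221). Of the 3 measured HUSH genes, Pphln1 rose by 1.77 with the mixture, and Mphosph8 and Morc2a fell by 1.27 and 0.95.

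The mixture was compared directly with IFNg and with TNFa. Relative to IFNg 8 members were higher and 22 lower, against 6.45% of all genes higher and 7.83% lower, and 21 were lower without Zfp961. With total counts 6 and 53 were, with the replicate block 15 and 36, with replicates 2 and 3 only 2 and 2, and with only the 2 groups fitted 6 and 3. With any 1 of the 6 libraries left out 8 to 13 were lower, and without IFNg replicate 1 or 2, 5 were higher. Zfp821 had 32.4, 37.0 and 28.1 CPM with the mixture and 12.22, 12.49 and 16.41 CPM with IFNg (1.24 ± 0.165, edgeR adjusted p = 0.000132). Zfp146 had 10.3, 10.1 and 8.68 CPM with the mixture and 26.9, 28.2 and 26.9 CPM with IFNg (-1.49 ± 0.131, edgeR adjusted p = 5.41e-06). In both the groups were apart. Zfp800 and Zfp513 were higher by 1.23 ± 0.265 and 0.94 ± 0.219 (edgeR adjusted p = 0.005 and 0.00828, and 0.0827 and 0.0761 with replicates 2 and 3 only). Zfp395 had a log2 fold change of -2.42 ± 0.461 (edgeR adjusted p = 0.0024, and 0.0574 with replicates 2 and 3 only), and Zfp472 of -1.32 ± 0.334 (edgeR adjusted p = 0.0139, and 0.0938 without mixture replicate 2).

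Relative to TNFa 13 members were higher and 31 lower with the mixture, against 12.6% of all genes in each direction, and 30 were lower without Zfp719. With total counts 7 and 77 were, with the replicate block 21 and 38, and with replicates 2 and 3 only 7 and 13. Without mixture replicate 2, 19 were lower. Zfp281 and Zfp821 were higher by 1.93 ± 0.279 and 1.85 ± 0.168, and Zfp800 by 1.53 ± 0.267 (edgeR adjusted p from 1.22e-06 to 0.000436). Zfp146, Zfp157 and Zfp608 were lower, with log2 fold changes of -1.45 ± 0.13, -1.67 ± 0.276 and -1.51 ± 0.255 (edgeR adjusted p from 1.11e-06 to 0.00034). Zfp598 had 29.4, 34.5 and 27.0 CPM with the mixture and 51.7, 61.0 and 44.4 CPM with TNFa (-0.79 ± 0.153, edgeR adjusted p = 0.00109). Zfp451 had a log2 fold change of -0.77 ± 0.147 (edgeR adjusted p = 0.000952).

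IFNg and IFNa differed directly in few members, with 4 higher and 1 lower with IFNg than with IFNa, against 2.81% of all genes higher and 2.36% lower. Of the 4, 1 was Zfp961, a member only through IFNg. The block gave 7 higher and 6 lower, and with replicates 2 and 3 only 0 and 1. Without any 1 library other than IFNa replicate 2, 1 or 2 were higher, and without replicate 3 of IFNg or of IFNa 2 were lower. Zfp821 had 12.22, 12.49 and 16.41 CPM with IFNg and 27.8, 35.3 and 35.3 CPM with IFNa, without overlap (-1.26 ± 0.165, edgeR adjusted p = 0.000473). Zfp146 had 26.9, 28.2 and 26.9 CPM with IFNg and 16.2, 13.6 and 17.5 CPM with IFNa (0.80 ± 0.128, edgeR adjusted p = 0.00178, and 0.109 with replicates 2 and 3 only). Zfp263 was higher with IFNg by 0.69 ± 0.171 (edgeR adjusted p = 0.027, and 0.155 without IFNg replicate 2). Zfp961 averaged 12.83 ± 1.51 CPM with IFNg and 5.16 ± 1.30 CPM with IFNa (SD, n = 3 each), given as a description.

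Set side by side, some of the named members, picked for large changes, had distinct cytokine patterns. Zfp821 averaged 13.7 ± 2.34 CPM with IFNg, 20.1 ± 3.64 with IL-6, 32.8 ± 4.30 with IFNa, 9.01 ± 0.442 with TNFa, 32.5 ± 4.48 with the mixture and 16.6 ± 0.515 CPM unstimulated (SD, n = 3 each). It was thus called higher with IFNa and with the mixture and lower with TNFa. Zfp263 averaged 39.9 ± 5.61 CPM with IFNg, 29.8 ± 3.07 with IL-6, 24.8 ± 1.58 with IFNa, 98.7 ± 20.8 with TNFa, 54.2 ± 11.3 with the mixture and 23.0 ± 0.583 CPM unstimulated. Zfp704 averaged 18.2 ± 1.86, 38.9 ± 7.62, 14.6 ± 2.40, 22.3 ± 6.56 and 9.90 ± 4.38 CPM with IFNg, IL-6, IFNa, TNFa and the mixture, and 52.6 ± 2.23 CPM unstimulated. All but IL-6 lowered it by the test. With IFNa Zfp395 had a log2 fold change of -1.31 ± 0.423 (edgeR adjusted p = 0.0502, and 0.006 with the replicate block).

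Other measures moved with the cytokine groups as well. The endothelial markers summed to 180 to 201 plain CPM with IFNa, 129 to 162 with the mixture and 25.9 to 54.4 in unstimulated libraries, mostly through Kdr and Flt1, while Cldn5 averaged under 1 CPM in all neonatal groups. The oligodendrocyte markers summed to 163 to 232 with IFNg, 302 to 341 with IFNa, 275 to 305 with the mixture and 120 to 153 in unstimulated libraries. The border macrophage markers summed to 523 to 587 with IL-6, 234 to 248 with IFNa, 272 to 287 with the mixture and 316 to 361 in unstimulated libraries. The immediate early genes summed to 1355 to 1738 with the mixture and 788.9 to 917.5 in unstimulated libraries, and lay above the unstimulated range with IFNg (1043 to 1226), IFNa (1198 to 1399) and TNFa (1156 to 1456) too. The B and plasma cell markers summed to 1.82 to 3.51 with the mixture, at most 5.99 with IFNa or TNFa, and 7.30 to 11.75 in unstimulated libraries. The 8 microglial markers summed to 6341 to 8013 with IFNg, 6233 to 6696 with IFNa, 7596 to 8624 with TNFa, 5038 to 6089 with the mixture and 8668 to 9606 in unstimulated libraries. The ribosomal protein genes took 2.86% to 3.63% of reads with the mixture and 3.76% to 4.43% in unstimulated libraries. Their part in the members' differences was not tested.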

How the data were processed

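The deposited table holds raw read counts per gene, with the gene's length and biotype per the file headers. The submitters' processing notes list cutadapt 2.1, STAR 2.7.1a and the mm10 build. Per the labels, the library kit was directional. Which program counted the reads, and with what strand option, was not given in the sources used here. Counts of genes with overlapping exons may hold each other's reads.

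All genes were tested with edgeR 4.0.16 in R 4.3.3: a filter on low counts by filterByExpr, TMM scaling, a robust quasi-likelihood F test and Benjamini-Hochberg adjustment over every gene tested. One fit held the 6 adult libraries (13799 genes, 4 degrees of freedom left) and another the 18 neonatal ones (14626 genes, 12 left), both without a replicate block. Standard errors are the absolute log2 fold change over the square root of F. Levels are TMM-scaled CPM, or plain CPM by library total where said. No pair of the 24 same-group pairs was identical, and chi-square over degrees of freedom was at least 5.07. All 45 pairs of same-numbered neonatal libraries deviated together (correlations 0.184 to 0.691), so the numbers pair them, though what a number stands for is not in the labels. The adult numbers did so in 2 of 3 pairs and were not read as pairs.

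The members and lists were chosen with earlier results of these data known. Named members are, per comparison, up to 8 each way (up to 3 in the 3 direct comparisons) with the largest change among called members without overlap between groups and called with any 1 library left out, filled up to 3 where fewer passed; called members of the role lists; the 5 highest and 3 lowest per kb; and neighbours of the threshold and of runs. KRAB boxes and fingers were searched by pattern in translated GENCODE M21 coding transcripts, and shared sequence with blastn (at least 98% identity over 75 bases). As alternatives, DESeq2 1.42.0, limma-voom (limma 3.58.1), RLE or total-count scaling, other filters and sets of libraries, a replicate block and the removal of each library were tried. In simulated counts for the adult comparison (13417 genes) the test found 59.6% of genes changed 2-fold and 76.6% of those changed 4-fold. For IFNg (14278 genes) it found 32% and 62.9%.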

Additional observations from a re-analysis of the deposited data

How the results depend on the processing

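No named member turned sign under any alternative. Of 630 fits of a named call with 1 library left out, 542 kept the call and 88 lost it; of 920 with another setting, 834 kept it and 86 lost it, and the replicate block lost none of 105. Depth limits members near the threshold, whose lowest counts per library were 19 to 91 reads. At a threshold of 10 CPM 104 genes would be members, and at 2 CPM 236.

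The counts that moved by over 1.5 times are given as higher and lower. The cause was not tested except that fewer libraries leave fewer degrees of freedom. No share of all genes under the same setting stands beside them. With total counts, 4 adult members were lower; 14 were lower with IFNg, 5 higher and 26 lower with IFNa, 7 and 88 with the mixture, 53 lower for the mixture over IFNg, 7 and 77 for the mixture over TNFa, and 2 lower for IFNg over IFNa. With the replicate block, 14 and 16 were called with IFNg, 3 and 4 with IL-6, 27 lower with IFNa, 9 higher with TNFa, 15 and 36 for the mixture over IFNg, 21 higher for the mixture over TNFa, and 7 and 6 for IFNg over IFNa. With replicates 2 and 3 only (chosen after seeing the data), 3 and 4 were called with IFNg, 2 and 4 with IFNa, 3 lower with TNFa, 24 lower with the mixture, 2 and 2 for the mixture over IFNg, 7 and 13 for the mixture over TNFa, and 0 higher for IFNg over IFNa. With only the 2 groups compared, 7 were higher with IFNa, 28 lower with the mixture, 3 lower for the mixture over IFNg and 18 lower for the mixture over TNFa. DESeq2 called 6 higher with TNFa, 14 higher for the mixture over IFNg, 20 higher for the mixture over TNFa and 4 lower for IFNg over IFNa, where limma-voom called 2 lower. Without a filter 12 were lower for the mixture over IFNg.

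With 1 library left out, 45 to 61 members were higher and 12 to 20 lower in adult MRL/lpr cells, 4 to 5 and 5 to 8 with IFNg, 3 to 9 and 8 to 17 with IFNa, 1 to 4 and 4 to 8 with TNFa, and 15 to 19 and 29 to 38 with the mixture. They were 5 to 11 and 8 to 13 for the mixture over IFNg, 10 to 14 and 19 to 29 for the mixture over TNFa, and 1 to 3 and 1 to 2 for IFNg over IFNa.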
